A study of Mus musculus with 12 samples.

Results

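The difference between BRUCE knockdown and control cells after starvation was measured over all 24062 genes of a count table. The members are the 6 starved libraries, 3 labelled shBruce Starv and 3 labelled shRenilla Starv, of the 12 libraries in the series, and 12154 genes had enough counts to be tested. The cells were mouse embryonic fibroblasts (MEFs) that expressed either shBruce#1, a short hairpin RNA against Birc6, the gene for BRUCE, or shRenilla, a control hairpin against Renilla luciferase, a gene that mouse cells do not have. Starvation (Starv) lasted 2 h in a medium without serum or amino acids, and the other 6 libraries came from the same lines in full medium (FM). One line carried each hairpin, so effects of the knockdown and other differences between the lines cannot be told apart. The labels do not say whether replicates were separate cultures, and p-values measure only the spread between these libraries. In bulk RNA, fewer cells of a type and less RNA per cell cannot be told apart.

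BRUCE is a very large protein of the inhibitor of apoptosis (IAP) family that carries a BIR domain near its start and a ubiquitin-conjugating domain near its end. IAP proteins bind caspases and their activators, and BRUCE marks several of them with ubiquitin. Amino acid withdrawal shuts off the kinase mTORC1, which starts autophagy: Atg8 proteins are attached to a growing membrane, the autophagosome closes around its cargo, and SNARE and tethering proteins join it to the lysosome. The comparison asks which transcripts differ between cells with and without the hairpin against Birc6 when that process has been switched on.

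The hairpin and its target are shown because the rest of the comparison depends on this match. Capitals mark bases 2 to 8 of the guide, the seed that first pairs with a target, and the bases of the site opposite to them. The site is at chr17:74548787-74548808 on the plus strand of GRCm38, in coding sequence of exon 3 of the 73 exons of Birc6.
guide of shBruce#1: tTTTAAACcatctttgagctgt
site in Birc6: acagctcaaagatgGTTTAAAa
Among the representative transcripts of all genes in the annotation, Birc6 was the 1 gene that held the whole site, and also the 1 gene that held the bases opposite guide positions 2 to 17. The bases opposite positions 2 to 13 were found in 10 genes.

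Before any result, 3 of the 6 libraries need a description. The replicate 1 library of shBruce Starv had the lowest depth, 7717265 counts against 13200393 to 17530994 in the other 5, yet counts in the most genes, 16350 against 14640 to 15107. Genes below the filter on low counts took 0.154% of its counts and 0.051% to 0.058% of those of the other 5. In a fit that weights each library by how well it matches its group, the weights were 0.175 and 0.171 for shBruce Starv replicates 1 and 3, and 0.579 for shRenilla Starv replicate 3, against 1.31 to 3.49 for the remaining 3. The median SD of a gene over replicates, on the log2(normalized count + 1) scale, was 0.324 in shBruce Starv and 0.128 in shRenilla Starv. Fibroblast markers were high in every library, with a summed normalized count of 136188 to 146978 in shRenilla Starv and 138663 to 168307 in shBruce Starv. The sums for epithelial, endothelial, blood cell, and adipocyte and chondrocyte markers were 165 to 922, muscle markers 998 to 1291 and neural markers 5092 to 6088. Cldn3, Emcn, Emr1, Tyrobp, Cd3e and Olig2 had 0 counts in all 6.

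Birc6 itself, at chr17:74528295-74703356 (plus strand), checks the labels. Its normalized counts were 4759, 4712 and 2787 in shRenilla Starv replicates 1 to 3 and 1175, 703 and 1226 in shBruce Starv replicates 1 to 3. All 3 knockdown libraries were below all 3 control libraries, and shRenilla Starv replicate 3 was well below the other control libraries. On the log2 scale the difference was -1.98 (standard error 0.25, edgeR adjusted p = 0.0186), and the mean was 25.3% of the control mean. An exact permutation test over the 6 libraries gave a two-sided p of 0.1, the smallest that 3 against 3 allow. Once the dependence of every library on the length and GC content of transcripts, described further on, had been taken out, it was -1.45.

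The whole comparison was broad. Of the 12154 genes, 2907 (23.9%) had an adjusted p under 0.05 in edgeR's quasi-likelihood test, 1550 higher (12.8%) and 1357 lower (11.2%) in shBruce cells. At least 2-fold differences were found in 299 of the higher and 216 of the lower genes. The 3 shBruce libraries lay wholly above or below the 3 shRenilla libraries for 2319 of the 2907, and for 34.9% of all genes tested. These calls did not rest evenly on the libraries. Among the 1550 higher genes, the highest shBruce library was replicate 1 for 1322, replicate 2 for 188 and replicate 3 for 40. Among the 1357 lower genes, the lowest was replicate 1 for 799, replicate 2 for 510 and replicate 3 for 48. The control library nearest to the knockdown was shRenilla Starv replicate 3, the highest control for 1410 of the higher genes and the lowest control for 1267 of the lower genes. Leaving out shBruce Starv replicate 1 gave 577 calls (4.75%), leaving out its replicate 2 gave 15 and leaving out its replicate 3 gave 5729. Leaving out shRenilla Starv replicate 1 gave 0 calls in edgeR (3474 at an unadjusted p under 0.05), and so did leaving out its replicate 2 (3408). Fitted on the 6 starved libraries alone, edgeR called 0 genes, with 3662 at an unadjusted p under 0.05, where DESeq2 on all 12 libraries called 3781 and limma-voom 2768.

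When libraries were dropped singly, 12 genes (0.0987% of genes tested) had libraries apart between the lines and passed in 10 of the 12 fits, the most that any gene passed. Of these, 4 were higher (Areg, Atoh8, Foxq1 and Abhd1) and 8 were lower (Birc6, Nrg1, Ptgs2, Pla2g4a, Vgll3, Fam198b, Arhgap19 and Col5a2). This set was chosen after the values were seen, and apart from Birc6, Atoh8 and Ptgs2 its genes stand outside the rule for named genes. Of the 12 fits, 6 left out an FM library, which leaves the starved libraries unchanged. Those fits therefore say little about how far a call rests on any single starved library. Both fits in which the 12 genes did not pass were those without shRenilla Starv replicate 1 or 2, in which no gene passed. With the length and GC trends removed, 7 of the 12 passed: Areg, Atoh8, Foxq1, Birc6, Nrg1, Ptgs2 and Pla2g4a.

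Ptgs2 and Pla2g4a act in the same pathway, since cytosolic phospholipase A2 (Pla2g4a) releases arachidonic acid and cyclooxygenase-2 (Ptgs2) turns it into the precursor of prostaglandins. The genes are neighbours on chromosome 1, Pla2g4a at chr1:149829618-149961290 (minus strand) and Ptgs2 at chr1:150100031-150108227 (plus strand). Ptgs2 had normalized counts of 980, 1081 and 851 in shRenilla Starv and 279, 420 and 294 in shBruce Starv. Every control library was far above the highest knockdown library, and the log2 fold change was -1.55 (standard error 0.22, edgeR adjusted p = 0.0225). Pla2g4a had 1576, 1669 and 1468 in shRenilla Starv against 888, 1184 and 967 in shBruce Starv, a log2 fold change of -0.63 (standard error 0.13). Its groups did not overlap either, although the change was smaller. In FM, where mean Ptgs2 counts were far higher, 5789 in shRenilla and 4484 in shBruce cells, its log2 fold change between the lines was -0.37.

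Nrg1 and Areg both encode growth factors of the EGF family, and they moved in opposite directions. Nrg1, on chromosome 8, encodes neuregulin, the ligand of ErbB3 and ErbB4, and had normalized counts of 274, 294 and 280 in shRenilla Starv and 111, 148 and 129 in shBruce Starv. The control libraries were tightly grouped and well above the knockdown libraries. This is -1.11 on the log2 scale (standard error 0.14, edgeR adjusted p = 0.0186), and it was -1.15 with the trends removed. Areg, on chromosome 5, encodes amphiregulin, a ligand of the EGF receptor, and had 56.7, 44.1 and 66.6 in shRenilla Starv against 145, 89.6 and 150 in shBruce Starv. Every knockdown library was above every control library, with a log2 fold change of 1.198 (standard error 0.21). Egfr, the receptor of amphiregulin, had 738, 739 and 507 against 295, 246 and 510, where replicate 3 of shBruce Starv was level with replicate 3 of shRenilla Starv. Its log2 fold change was -0.91 (adjusted p = 0.0285), and -0.39 with the trends removed (adjusted p = 0.14).

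A pair of transcription factors was among the higher genes of that set. Atoh8, a basic helix-loop-helix factor on chromosome 6, had normalized counts of 16.8, 16.4 and 27.6 in shRenilla Starv and 82.8, 44.8 and 96.6 in shBruce Starv, a log2 fold change of 1.89 (standard error 0.36). Foxq1, a forkhead factor on chromosome 13, had 134, 110 and 124 against 396, 157 and 247, a log2 fold change of 1.10 (standard error 0.25). For both, the lowest knockdown library was replicate 2. In FM, the log2 fold change was 1.15 for Atoh8 and 0.09 for Foxq1. Lower genes of the set included Vgll3, a cofactor of TEAD transcription factors (-0.93), Col5a2, a chain of fibrillar collagen V (-0.66), and Arhgap19 (-0.85), and in each the 3 libraries of the lines were apart.

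**Figure D1:**
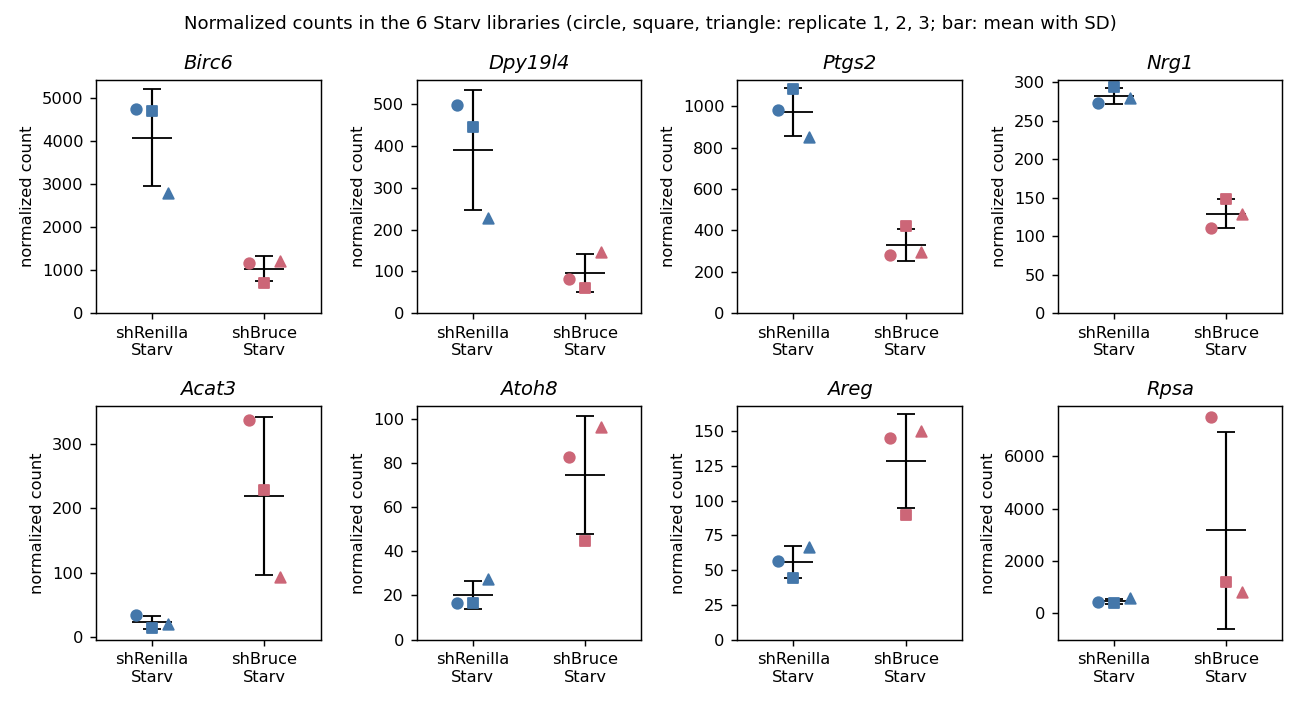
Normalized counts (y axis, linear) of 8 genes in the starved libraries, with shRenilla in blue and shBruce in red, replicates 1 to 3 as circle, square and triangle, and bars for the mean with the SD. Birc6, Dpy19l4, Ptgs2 and Nrg1 lay lower and Acat3, Atoh8, Areg and Rpsa higher in all 3 shBruce libraries, and the Rpsa mean rested mostly on replicate 1 (7511 against 1180 and 801).

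The largest fold change in each direction belonged to Acat3 and Dpy19l4 among the genes that the rule could name. Dpy19l4, at chr4:11261315-11322137 (minus strand), belongs to a family that includes C-mannosyltransferases of the endoplasmic reticulum. Its normalized counts were 499, 446 and 228 in shRenilla Starv and 82.8, 59.8 and 147 in shBruce Starv. No libraries overlapped, and the log2 fold change was -1.998 (standard error 0.37, adjusted p = 0.0225), or -1.44 with the trends removed. Its relatives Dpy19l1 (-0.21, adjusted p = 0.227) and Dpy19l3 (-0.52, adjusted p = 0.103) did not pass. Acat3, at chr17:12923813-12940600 (minus strand), encodes a thiolase of the acetyl-CoA acetyltransferase family. It had 34.3, 14.7 and 19.99 in shRenilla Starv against 337, 227 and 92.9 in shBruce Starv, or 3.21 on the log2 scale (standard error 0.59, edgeR adjusted p = 0.0225). The knockdown libraries spread more than 3-fold among themselves but were all above the controls. A close relative and an overlapping gene make this count uncertain. Its close relative Acat2 is the next gene on the same strand, at chr17:12942890-12960747, and Acat3 overlaps Tcp1, a chaperonin subunit gene on the plus strand. The strand setting of the counting is not given in the sources used here, so Acat3 reads and antisense Tcp1 reads cannot be told apart. Acat2 had 989, 1056 and 1139 against 2642, 1605 and 913 (0.69, adjusted p = 0.089), Tcp1 had 12000, 12726 and 13292 against 7983, 16768 and 11361 (-0.07), and Acat1, the mitochondrial member, had a log2 fold change of 0.19 (adjusted p = 0.29).

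Among called genes that averaged 50 or more normalized counts in the higher group and had no overlap between the lines, the 12 lower genes with the largest fold changes were Birc6, Dpy19l4, Uhmk1 (-1.88), Megf9 (-1.85), Lnpep (-1.84), Prex2 (-1.82), Pdgfd (-1.78), Nbeal1 (-1.75), Ptpn4 (-1.74), Lrch2 (-1.70), Lrrc8b (-1.68) and Cers6 (-1.65). They include a kinase of splicing factors (Uhmk1), the insulin-regulated aminopeptidase (Lnpep), an activator of the GTPase Rac (Prex2), a tyrosine phosphatase (Ptpn4), a subunit of the volume-regulated anion channel (Lrrc8b) and a ceramide synthase (Cers6). Most have long representative transcripts, from 4930 bases in Lrch2 to 15731 in Nbeal1 among these 10, except Pdgfd (1795) and Cers6 (1279). These lengths are of the annotated transcript with the longest coding sequence, which may not be the main form in these cells. The values with the trends removed depend on them. Of the 12 lower genes, Megf9, Nbeal1, Lrch2 and Lrrc8b did not pass in edgeR with the trends removed. Megf9, Lnpep and Lrrc8b did not pass in edgeR without shBruce Starv replicate 1. Pdgfd encodes a ligand of the PDGF receptor beta and had normalized counts of 51.9, 76.2 and 40.0 in shRenilla Starv against 22.2, 16 and 13 in shBruce Starv. Cers6 had 745, 761 and 443 against 172, 122 and 323. With the trends removed, Pdgfd (-1.83) and Cers6 (-1.86) had the largest negative log2 fold changes of the genes that passed every one of the tests named in the rule. Gk5, a glycerol kinase relative (-1.42), Mr1, which presents vitamin B metabolites to T cells (-1.40), and Slit3, a guidance cue of the Slit family (-1.39), came next in that ranking among genes not yet named. Slit3 had 97.4, 94.3 and 101 in shRenilla Starv and 24.2, 26.7 and 52.0 in shBruce Starv, with no overlap.

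Under the same limits, the higher genes with the largest fold changes after Acat3 were Rpsa (2.79), Oaz1 (2.59), Snx22 (2.55), Rpl13 (2.46), Pam16 (2.28), Rpl11 (2.28), Nrp (2.15), Rpl19 (2.09), Rnaset2b (2.02), Atoh8 (1.89) and U90926 (1.73). Rpsa, Rpl13, Rpl11 and Rpl19 encode proteins of the cytosolic ribosome, Oaz1 an inhibitor of polyamine synthesis, Pam16 a part of the mitochondrial import motor and Snx22 a sorting nexin. Replicate 1 of shBruce Starv was the highest library in each of these but Atoh8. Rpsa had 411, 394 and 560 in shRenilla Starv against 7511, 1180 and 801 in shBruce Starv, and Rpl13 had 2246, 2153 and 2984 against 30740, 5922 and 3995. Without shBruce Starv replicate 1, the log2 fold changes of Rpsa, Oaz1, Rpl13, Rpl11 and Rpl19 were 1.11, 1.10, 0.997, 1.04 and 1.002, and those of Pam16 and Nrp were 1.34 and 1.18. Oaz1, Pam16, Nrp and U90926 then no longer passed, and with the trends removed Oaz1, Rpl13, Pam16, Rpl11, Rpl19 and U90926 did not pass. Ribosomal protein genes, Oaz1 and Rnaset2b have near-identical copies elsewhere in the genome, so their counts are uncertain. Snx22 overlaps Ppib on the other strand and Pam16 overlaps Glis2, and without a stated strand setting those reads cannot be told apart. Ppib had a log2 fold change of 0.68 and Glis2 of -0.17. The same limit holds for Abhd1, Eif5b, Crim1, Itga7, Atg4d, Atg2b, Nid2, Nf1, Bad, Ndufa2, Gas5 and Kcnq1ot1, each of which overlaps a gene on the other strand. Itga1 overlaps Pelo on the same strand, where no strand setting would separate the reads. Nrp was also placed over Nrp1 on the same strand. Symbols missing from the annotation were matched through older symbols (932 in all), so this position may be that of Nrp1 itself. The position, length and trend-removed value of Nrp are therefore uncertain. Ranked with the trends removed, further higher genes were Rbm25, a splicing regulator (1.82), BC005561 (1.81) and Eif5b, which joins the ribosomal subunits at initiation (1.81). All 3 were highest in replicate 1, as in Rbm25 with 4447, 4732 and 5446 against 22396, 9156 and 6490.

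**Figure D2:**
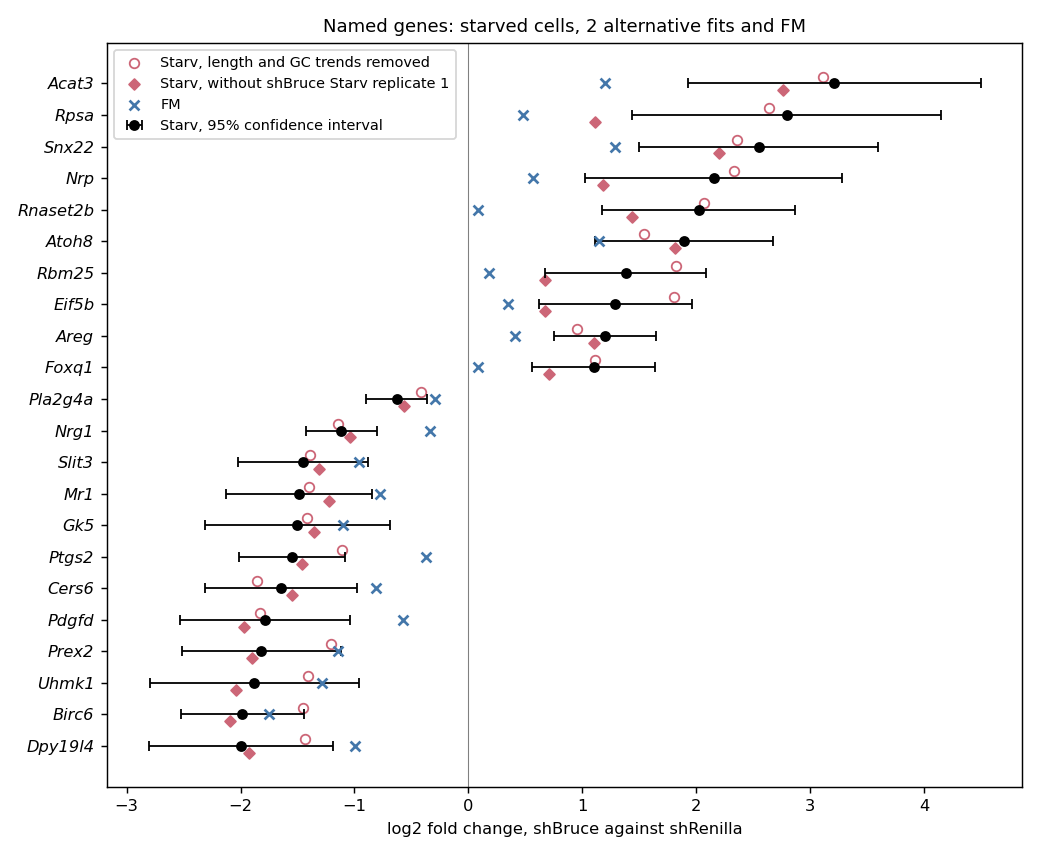
Log2 fold change (x axis) of 22 genes between shBruce and shRenilla MEFs, with filled circles and 95% confidence intervals for the starved libraries, open circles with the length and GC trends removed, diamonds without shBruce Starv replicate 1 and crosses for FM. Acat3 (3.21) and Dpy19l4 (-1.998) lie at the ends, Rpsa drops from 2.79 to 1.11 without replicate 1, and Nrg1 and Pdgfd stay within -1.04 to -1.15 and -1.78 to -1.97 in the 3 fits of the starved libraries.

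Transcript length ordered the comparison. The genes were put into 10 bins by the length of their representative transcript, the one with the longest coding sequence. In the shortest bin, up to 1191 bases, the median log2 fold change was 0.55, and 511 of 1208 genes were higher and 6 lower. In the longest bin, from 6404 bases, it was -0.47, and 22 of 1205 genes were higher and 446 lower. GC content gave the same kind of order, with medians from -0.37 in the poorest bin to 0.35 in the richest. The libraries differed in this. Set against the mean of the 3 shRenilla Starv libraries, the median log2 difference went from 0.80 in the shortest to -0.51 in the longest bin in shBruce Starv replicate 1, and from 0.61 to -0.77 in replicate 2. In replicate 3 of shBruce Starv it went from 0.20 to -0.21, and in replicate 3 of shRenilla Starv from 0.20 to -0.23. With these trends removed from each library, 653 genes passed (5.37%), 370 higher (3.04%) and 283 lower (2.33%), and the bins had medians between -0.09 and 0.07. In FM the medians went from 0.25 to -0.28. Whether the trends come from the RNA, the libraries or the cells was not tested.

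**Figure D3:**
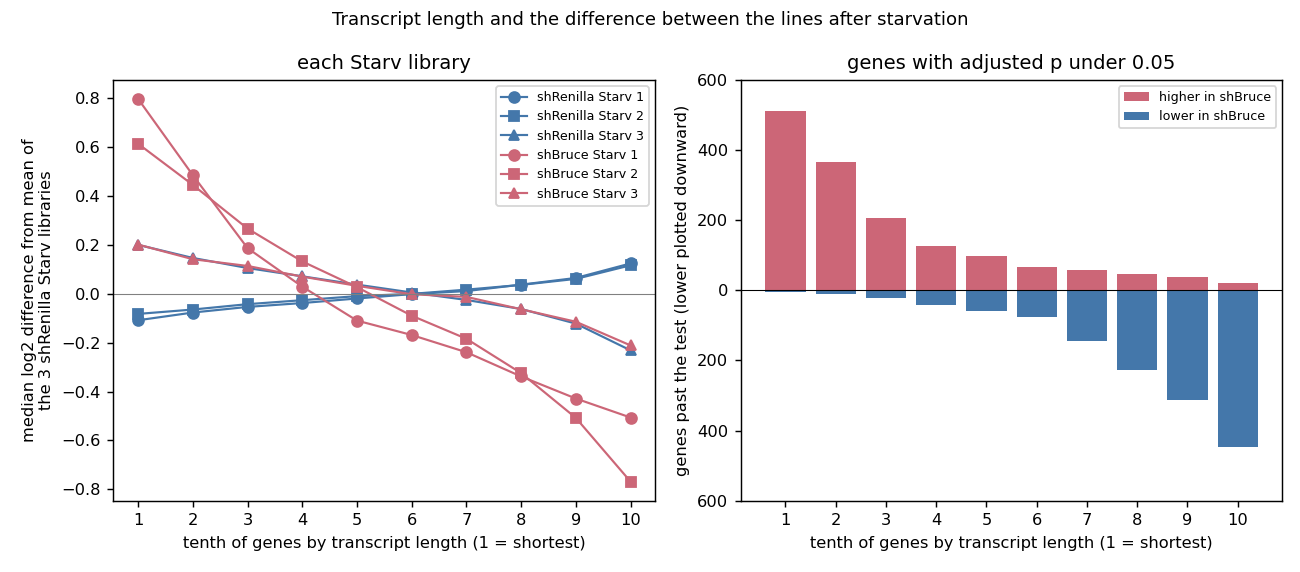
Left, median log2 difference of each starved library from the mean of the 3 shRenilla Starv libraries (y axis) over 10 bins of genes by transcript length (x axis, shortest first). Right, number of genes past the test per bin, higher upward and lower downward. The steepest lines are shBruce Starv replicates 1 and 2, replicate 3 of both lines run together, and the higher genes go from 511 to 22 while the lower genes go from 6 to 446.

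Lists of genes for very large proteins and for small subunits stood at opposite ends. Of 37 genes for giant proteins, 0 were higher and 20 lower (12.8% and 11.2% of all genes tested), with a median log2 fold change of -0.64 beside 0.00 for all genes. The largest differences were in the neurobeachin relative Nbeal1 (-1.75) and in the lipid transfer proteins Vps13c (-1.36) and Vps13a (-1.03). The Ras inhibitor Nf1 had normalized counts of 2555, 2557 and 1571 in shRenilla Starv against 1072, 903 and 1363 in shBruce Starv (-1.001). Without shBruce Starv replicate 1, 5 of the giant proteins passed (4.75% of all genes tested), with a median of -0.65. Their median with the trends removed was -0.23, and 2 were lower and 1 higher (2.33% and 3.04% of all genes tested). Of 205 genes of the cytosolic ribosome, the respiratory complexes, the proteasome and the Sm and LSm rings of splicing particles, 135 were higher and 0 lower. The ribosomal list had 50 of 78 higher with a median of 0.78, the respiratory list 53 of 73 with 0.76, the proteasome list 18 of 32 with 0.53 and the Sm and LSm list 14 of 22 with 0.54. Without shBruce Starv replicate 1, the calls in these lists were 30, 10, 1 and 1, beside 4.75% of all genes tested. For the proteasome and the Sm and LSm lists this is no more than that share. The medians without that library were 0.56, 0.53, 0.35 and 0.43. Examples are Atp5e of the ATP synthase (1.71), Ndufa2 of complex I (1.68), Psmb3 of the proteasome core (1.23) and Lsm7 (2.07), which were 0.96, 0.93, 0.48 and 0.65 without that library. Atp5e had 1291, 1380 and 1927 in shRenilla Starv against 9003, 3809 and 2232 in shBruce Starv, with no overlap and highest in replicate 1. The libraries of Lsm7 overlapped between the lines. With the trends removed, the 4 medians were 0.32, 0.28, 0.19 and 0.24. Then 13, 7, 0 and 3 members were higher and 1, 0, 0 and 0 lower (3.04% and 2.33% of all genes tested).

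Targets of YAP, the coactivator that the Hippo kinases hold back and that answers to cell spreading and tension, were lower where they passed. Of 21 tested, 10 were lower and 0 higher (11.2% and 12.8% of all genes tested), with a median of -0.59. In 11, the knockdown libraries were wholly below the controls (18.5% of all genes tested). With the trends removed, 7 were lower (2.33% of all genes tested), with a median of -0.36. Without shBruce Starv replicate 1, 5 passed (4.75% of all genes tested), with a median of -0.58. Lats2, a Hippo kinase that is itself a YAP target, had 2357, 2301 and 1950 in shRenilla Starv against 1223, 1234 and 1365 in shBruce Starv, a difference of -0.79 (edgeR adjusted p = 0.0225). Ctgf, the connective tissue growth factor, had 1430, 1383 and 1389 against 745, 929 and 369 (-1.04, adjusted p = 0.0466), and here replicate 3 was the lowest library, unlike in most lower genes. F3, the tissue factor that starts coagulation, had 446, 466 and 485 against 125, 333 and 232 (-0.99). Amotl2 (-0.60), Ptpn14 (-0.68) and Crim1 (-0.68) also passed, while Cyr61, with 1563, 1414 and 1479 against 882, 1311 and 326, did not (-0.83, adjusted p = 0.109). Of the named targets that passed, Ctgf and Crim1 did not with the trends removed (edgeR adjusted p = 0.0653 and 0.0787). Ctgf and F3 did not pass without shBruce Starv replicate 1 (edgeR adjusted p = 0.0877 and 0.0584). Amotl2, Lats2, Ptpn14, Crim1 and Cyr61 were named after their values were seen.

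Receptors for the matrix and the basement membrane were lower where they passed. Beside 11.2% of all genes tested that were lower, 5 of 15 integrin genes were lower and 0 higher, with a median of -0.40. Removing the trends left 3 lower, beside 2.33% of all genes. Itgb1, the beta chain shared by most integrins of fibroblasts, had 16738, 17714 and 16076 in shRenilla Starv against 9110, 11016 and 12966 in shBruce Starv (-0.61, adjusted p = 0.0225). Its partners Itgav (-0.80), Itga1 (-1.32) and Itga8 (-1.76) also passed, and Itga7 did with -0.40. In all 5, no knockdown library reached the controls. Itgav and Itga1 did not pass in edgeR with the trends removed. Itga1 and Itga7 did not pass in edgeR without shBruce Starv replicate 1. Of 14 genes of laminins and the basement membrane, Lama4, a laminin chain (-1.07), and Nid2, which links laminin to collagen IV (-1.07), were lower, with and without the trends, a share near that of all genes in the fit with the trends kept. Nid2 had 958, 910 and 790 against 289, 393 and 577. Of 19 collagens 6 were lower, of 27 growth factor receptors 9, and of 32 matrix enzymes and inhibitors 7, with 0, 0 and 1 higher. With the trends removed these lists had 1, 1 and 3 lower. Without shBruce Starv replicate 1 they had 4, 0 and 3 calls, beside 4.75% of all genes tested.

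Among the genes of the autophagy pathway, calls went in both directions, beside 12.8% higher and 11.2% lower of all genes tested. Of 25 genes for initiation and membrane growth, Atg101, a subunit of the ULK complex, was higher (0.91), and Atg2b, a lipid transfer protein (-0.57), and Ulk2, a kinase of that complex (-0.52), were lower. The libraries of Atg2b overlapped between the lines. None of this list passed in edgeR with the trends removed (653 genes in all), and without shBruce Starv replicate 1 only Atg101 did. Of 16 genes of Atg8 proteins, Atg4 proteases and receptors, 4 were higher and 2 lower, and without shBruce Starv replicate 1 none passed in edgeR (577 genes in all). Map1lc3a had normalized counts of 508, 463 and 652 in shRenilla Starv against 1982, 1082 and 776 in shBruce Starv (1.23), and Gabarapl2 had 181, 223 and 236 against 573, 419 and 244 (0.94). Both encode Atg8 proteins, and in both replicate 3 of shBruce Starv was just above the highest control. Atg4d, a protease of Atg8 proteins, had 269, 256 and 308 against 569, 415 and 368 (0.69), and was the 1 member of this list that passed with the trends removed (0.85). Atg4c (-0.48) and Wdfy3, a large receptor for aggregates (-0.76), were lower, but the libraries of Wdfy3 overlapped between the lines. Of 25 genes that bring autophagosome and lysosome together, Vamp8, the lysosomal SNARE, was higher, with 530, 495 and 657 against 1516, 1098 and 659 (0.95). Lamp2, a lysosomal membrane glycoprotein, was lower, with 7527, 7698 and 7157 against 4695, 5379 and 6009 (-0.48), and it was the 1 member of these 25 that passed with the trends removed (-0.38). Among 38 lysosomal hydrolases 1 was higher and 5 were lower, among them Arsb, which cleaves sulfate from glycosaminoglycans (-0.86), and Ctso, a cathepsin (-0.81), and among 15 subunits of the vacuolar ATPase Atp6v1f (0.79) and Atp6v0b (0.58) were higher. The libraries of Atp6v1f and those of Atp6v0b overlapped between the lines. With the trends removed, 1 hydrolase was higher and 3 were lower, Arsb included (-0.72), and no ATPase subunit passed in edgeR.

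BRUCE belongs to the IAP family, and its relatives were measured with the other genes of apoptosis. Of 31 tested, 6 were higher and 3 lower, with a median of 0.10, a share near that of all genes. Xiap, the main inhibitor of caspases, had 2502, 2637 and 1767 in shRenilla Starv against 723, 780 and 1658 in shBruce Starv, where replicate 3 was close to the controls (-1.12, adjusted p = 0.0246). Birc3, the cellular IAP that acts in NF-kappaB signalling, was lower with 111, 117 and 97.1 against 46.4, 55.5 and 80.8 (-0.80). Apaf1, the scaffold of the apoptosome, was lower (-0.85). Higher were Cycs, cytochrome c (1.07), Bad (0.76), Bax (0.75), Bok (0.64) and Bbc3 (0.42), which promote apoptosis, and Diablo, which binds IAP proteins (0.38). Libraries of Cycs, Bad and Bax overlapped between the lines. None of the 9 called genes passed with the trends removed (edgeR, 653 genes in all), and Bbc3 then had the opposite sign (-0.10). In the full list 0 of 31 passed then, and 1 without shBruce Starv replicate 1. Of 32 ubiquitin-conjugating enzymes 5 were higher and 0 lower (12.8% and 11.2% of all genes tested). After removing the trends 3 were higher (3.04% of all genes tested), and without shBruce Starv replicate 1 there were 0 calls in edgeR (577 genes in all).

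Noncoding transcripts were higher in the knockdown line where they passed. Of 12 nuclear long noncoding RNAs and host genes of small nucleolar RNAs, 4 were higher and 0 lower (12.8% and 11.2% of all genes tested). In 7, the knockdown libraries lay wholly above the controls (16.4% of all genes tested). Gas5, which hosts several snoRNAs in its introns, had 3597, 4048 and 4577 in shRenilla Starv against 5989, 6383 and 5984 in shBruce Starv, with almost no spread among the knockdown libraries (0.59, adjusted p = 0.0225). Snhg8 (0.90), Snhg12 (0.71) and Kcnq1ot1 (0.67) also passed. Malat1, a nuclear speckle RNA, had 21116, 20057 and 16600 against 24723, 26013 and 24006 (0.37, adjusted p = 0.0662), and passed with the trends removed (0.90). The summed normalized count of this list was 48502 to 48765 in shRenilla Starv and 58588 to 68126 in shBruce Starv. Much of this sum was Malat1 and Neat1, with means of 19258 and 15401 in shRenilla Starv. Neat1 did not pass (0.40, edgeR adjusted p = 0.112). In contrast to the protein complexes above, the median of the list went up when the trends were removed, from 0.39 to 0.48. Then 5 members were higher (3.04% of all genes tested).

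The remaining lists are given beside 12.8% higher and 11.2% lower of all genes tested. Of 20 chemokines, cytokines and prostaglandin genes, Cxcl12, the stromal chemokine, had 1139, 1175 and 1048 in shRenilla Starv against 440, 665 and 809 in shBruce Starv (-0.80), and Csf1, the growth factor of macrophages, was also lower (-0.35). Il11, a cytokine of the IL-6 family, was higher with 26.3, 28.6 and 23.8 against 64.6, 42.7 and 47.4 (0.94), and its FM value was -0.03. Of 28 genes of N-glycosylation and C-mannosylation 4 were higher and 4 lower, led downward by Dpy19l4 and by Alg10b, which adds the last glucose to the lipid-linked glycan, with 2381, 2328 and 1376 against 497, 447 and 1050 (-1.60). Of 34 interferon-stimulated genes only Ifit2 passed (-0.61), and their median was 0.07 after starvation beside -0.57 in FM. The cholesterol synthesis list had 2 lower of 25, Hsd17b7 (-0.60) and the sterol carrier Stard4 (-0.70), and the fatty acid list 4 lower and 1 higher of 17, led by Gpam, the first enzyme of glycerolipid synthesis (-1.33). NRF2 targets were 6 of 22 higher, among them the ferritin chain Fth1 (0.88) and thioredoxin Txn1 (0.69). For the S phase and mitosis genes 4 of 38 were higher and 2 lower, the spindle motor Kif11 (-0.77) and the checkpoint kinase Bub1 (-0.75) being the lower. Cxcl12, Csf1, Il11, Ifit2, Stard4, Gpam, Fth1, Txn1, Kif11 and Bub1 did not pass with the trends removed, and there the NRF2 and fatty acid lists had no call in edgeR. Without shBruce Starv replicate 1, 4.75% of all genes tested passed. In that fit the NRF2, fatty acid and cholesterol lists had 0 calls and the S phase and mitosis list 1. The p53 targets had 3 higher and 5 lower of 23, the ATF4 targets 2 and 1 of 29, the immediate-early genes 3 and 0 of 28, the actin and SRF genes 4 and 2 of 27, the endoplasmic reticulum chaperones 1 and 1 of 23, the aminoacyl-tRNA synthetases 2 and 1 of 20 and the glycolysis genes 2 and 0 of 19. None of the 9 replication-dependent histone genes tested passed in edgeR. Nf1, Itga7, Bok, Diablo, Gas5, Neat1, Tcp1, Ppib and Glis2 were also named after their values were seen.

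**Figure D4:**
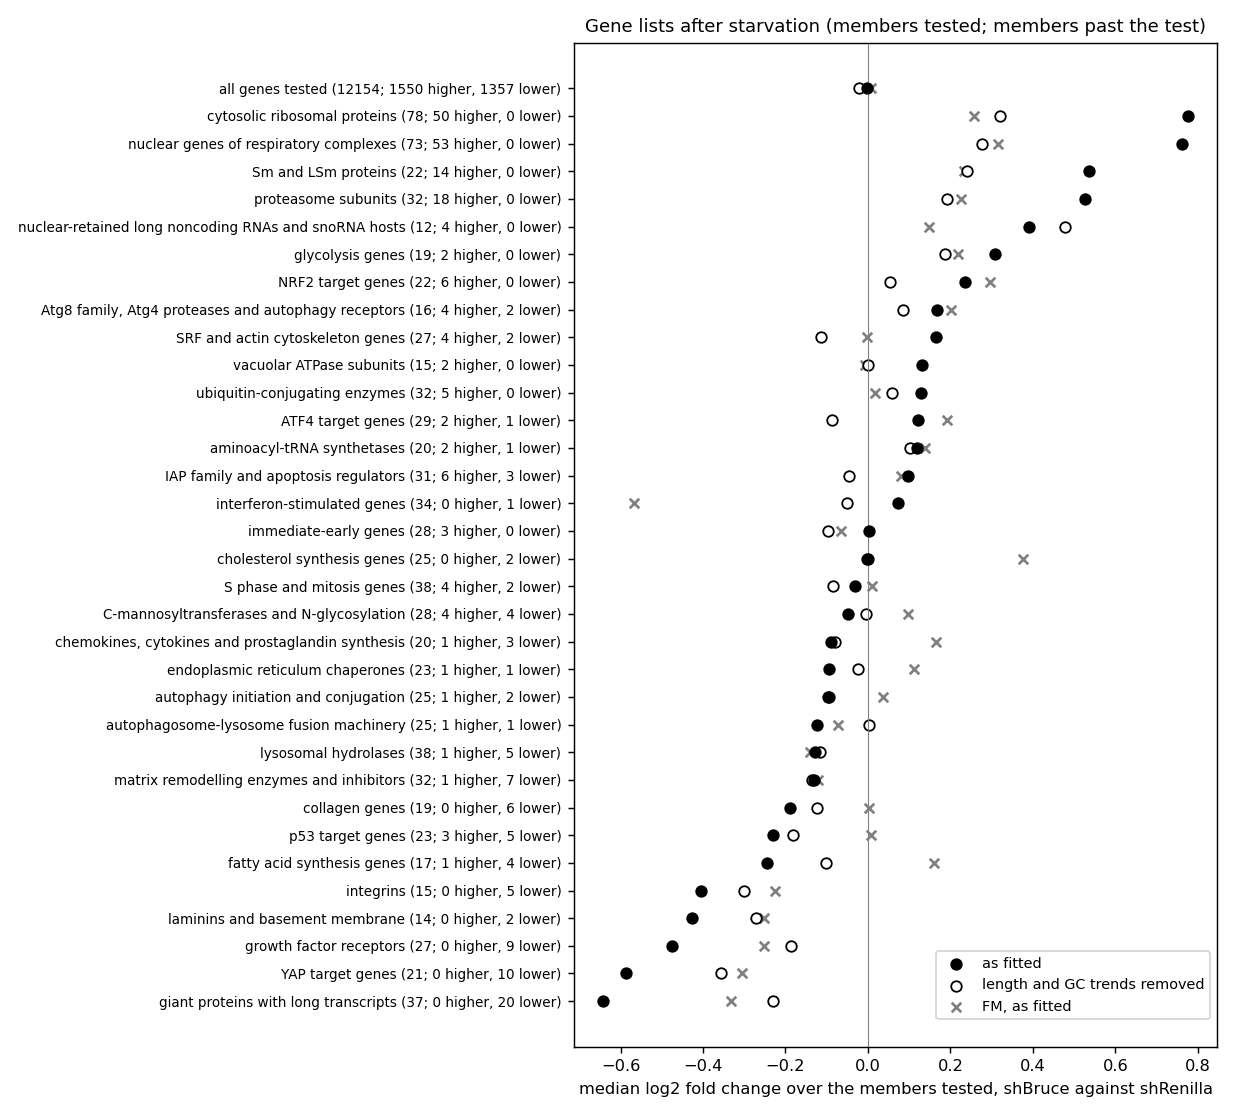
Median log2 fold change (x axis) over the tested members of each gene list (y axis, with the members tested and the members past the test), filled circles as fitted in Starv, open circles with the length and GC trends removed, crosses in FM. The ribosomal (0.78) and respiratory (0.76) lists lie at the upper end and the giant proteins (-0.64) and YAP targets (-0.59) at the lower, and for all 4 the value with trends removed is nearer to 0.

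Markers of other cell types had lower sums than fibroblast markers but were not all level. Sox9, a cartilage factor also found in other mesenchymal cells, had 274, 255 and 286 in shRenilla Starv against 733, 515 and 412 in shBruce Starv (1.02, adjusted p = 0.0225), and the adipocyte and chondrocyte sum was 412 to 459 against 655 to 922. Keratin Krt19 was higher (0.78), but its libraries overlapped between the lines. It did not pass with the trends removed (edgeR adjusted p = 0.168) or without shBruce Starv replicate 1 (edgeR adjusted p = 0.0876). The epithelial sum was 247 to 325 against 302 to 668. Of 13 fibroblast markers tested, 2 were higher and 0 lower (12.8% and 11.2% of all genes tested), and 8 had a log2 fold change above 0. One of the higher was S100a4, with 9464, 9617 and 11018 against 30359, 24992 and 11857 (1.16). Ptprc, the pan-leukocyte antigen, was higher (1.54) but at normalized counts of only 3.99 to 6.66 and 14.9 to 18.2. The part of cell composition in the comparison was not tested.

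Positions in the genome and matches to the guide seed were also examined. Median log2 fold changes by chromosome ran from -0.19 for the X to 0.16 for chromosome 7, and between -0.10 and 0.02 with the trends removed. Of the 11616 coding genes other than Birc6, 1480 had 1 match to the complement of guide bases 2 to 8 in the 3′ UTR of the representative transcript, with a median of -0.24, and 448 had at least 2, with -0.35. The 9163 with no match in coding sequence or 3′ UTR had 0.06. Median transcript lengths of these classes were 4160, 5795 and 2731 bases, and with the trends removed the medians were -0.03, 0.00 and -0.02. The 525 genes with a match in coding sequence alone had -0.25, and -0.11 with the trends removed.

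The FM libraries of the same lines, which share no sample with the starved ones, gave the lines' difference without starvation. Of the 2907 genes, 2839 (97.7%) had the same sign in FM, where 0 genes passed in this fit. The share of all genes tested with the same sign was not counted, so this value has no background beside it. FM had a length trend of the same direction (medians 0.25 to -0.28 over the bins), and fold changes in both media had a Pearson correlation of 0.64. The fold changes were smaller there for Acat3 (1.195 against 3.21), Dpy19l4 (-0.999 against -1.998), Ptgs2 (-0.37 against -1.55), Nrg1 (-0.34 against -1.11) and Areg (0.41 against 1.198), and nearer for Birc6 (-1.75 against -1.98). Libraries of the lines were apart in the same direction in both media for 1317 of the 2319 genes, a share not counted over all genes. They were apart in opposite directions for 6, and for 32 of all genes tested. The test of the difference itself, the interaction of line and medium, called 0 genes in edgeR. The smallest adjusted p was 0.806, and 474 genes had an unadjusted p under 0.05. For Ptgs2 the interaction was -1.18 and for Nrg1 -0.78 on the log2 scale, each with that adjusted p, and no gene can be said to differ more after starvation than in FM.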

How the data were processed

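RNA of 12 MEF libraries, 3 for each of 4 groups, was sequenced, and the deposited table gives whole read counts per gene that the authors made by removing ribosomal reads, aligning with STAR 2.4.0d to mm10 and counting with HTSeq 0.5.4p3. RNA was taken with TRIzol and enriched for poly(A). The annotation and the strand setting of the counting are not given in the sources used here. Library totals were 7717265 to 18510540 counts. Columns were assigned to groups by the labels.

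Genes were kept by edgeR's expression filter, scaled by TMM and tested with edgeR 4.0.16 (R 4.3.3), quasi-likelihood, in 1 model of all 4 groups, with Benjamini-Hochberg adjustment at 0.05. Standard errors were taken from the log2 fold change and its F statistic. For normalized counts, each count was divided by its library's effective size, scaled so that the 12 sizes have a geometric mean of 1. Alternatives were DESeq2 1.42.0, limma-voom 3.58.1 with and without sample weights, other scalings and filters, the 6 starved libraries alone, the replicate number as a block, leaving out each library, and offsets that remove a spline (4 degrees of freedom) of transcript length and GC content from each library. Lengths, GC content and positions come from GENCODE M21 on GRCm38, and 12051 tested genes (99.2%) had both. The scripts were tested on simulated data.

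Genes were named by rule. It took Birc6, Acat3 and Dpy19l4 with their families. It took the 12 called genes each way with the largest fold change, given libraries that did not overlap and, in the group where the gene was higher, normalized counts of 50 or more on average. It took up to 8 such genes each way, ranked with the trends removed, that also passed with DESeq2, limma-voom, the block and the trends removed. Of each list it took up to 3 called members each way and the member with the highest level per length. Members and lists were chosen with earlier results of these data known.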

Additional observations from a re-analysis of the deposited data

How the results depend on the processing

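In place of 2907 genes called after starvation, 6525 were called with limma-voom and sample weights, 653 with the length and GC trends removed, 238 with the trends removed and shBruce Starv replicate 1 left out (a setting chosen after seeing the data), and 0 with the 6 starved libraries alone (edgeR; 3662 at an unadjusted p under 0.05). Leaving out 1 library gave 0 (shRenilla Starv replicate 1 or 2) to 5729 (shBruce Starv replicate 3). Birc6 ranged from -2.20 to -1.77 over the fits that left out 1 library, and was -2.54 with sample weights and -1.45 with the trends removed. It missed the threshold without shRenilla Starv replicate 1 or 2 and in the starved libraries alone (-1.99, edgeR adjusted p = 0.117). The cause was not tested.

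Whether the replicate numbers pair the samples is not known. Deviations of same-numbered starved libraries from their group means had correlations of -0.08, -0.23 and -0.46. For differently numbered libraries they were -0.30 to 0.39. Such deviations cancel out within a group, so these values cannot show whether samples were paired. With the replicate number as a block, 1932 genes passed, and 2 with the trends removed as well, Birc6 and Nrg1.

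Of 123 genes of the text, 62 no longer passed with the trends removed. The sign changed for Dpy19l1 (0.15 with trends removed, 0.15 with the block too, 0.18 in the added setting), Bbc3 (-0.10, and -0.11 with the block), and in the added setting Bax (-0.031), Bad (-0.035), Atp6v0b (-0.042) and Tcp1 (0.11). Tcp1 was also 0.26 with sample weights, and -0.39 to 0.14 when 1 library was left out. Low depth limits shBruce Starv replicate 1. The interaction had 0 calls with edgeR, DESeq2 and limma-voom in all settings that include FM, with 205 to 3047 genes at an unadjusted p under 0.05.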
